A study of Mus musculus with 56 samples.

Results

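The RNA left unbound after a pulldown of microglial ribosomes was compared between deprived and control barrel cortex of mice that lack a working copy of Cx3cr1. Barrel cortex is the area of cerebral cortex that receives whisker input. The 10 libraries, of 56 in the series, were chosen by line and fraction: 5 deprived and 5 control libraries of mice 7, 12, 18, 19 and 22, each group with 3 females and 2 males. All mice had the genotype Cx3cr1CreErt2/CreErt2(Litt) Eef1a1LSL.eGFPL10a/+, in which a tamoxifen-activated Cre recombinase sits in both copies of Cx3cr1 and switches on an EGFP-tagged ribosomal protein in cells that use that promoter. All received 50 µg tamoxifen daily from postnatal day 1 to day 3. Their right whiskers were cauterised on day 4, and cortex was collected 24 h later, on day 5. Sensory input crosses the midline, so the left cortex was the deprived piece and the right cortex its control in every animal. Side and deprivation therefore cannot be told apart, and no animal without a lesion or without the insertion was among the 10 libraries. The comparison asks how loss of whisker input changed the RNA of the tissue as a whole when the fractalkine receptor is missing. The unbound fraction is not sorted and holds RNA of all cell types of the piece.

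Whisker signals reach layer 4 of this area through axons of thalamic neurons, whose cell bodies lie outside the cortex, below the hippocampus and the fluid-filled ventricle. Neurons that receive less input commonly lower their immediate early genes, such as Fos, Arc and Egr1. Fractalkine, made by neurons from the gene Cx3cl1 and cut from the membrane by the proteases Adam10 and Adam17, acts on microglia through Cx3cr1. Wnt proteins act through the frizzled receptors and beta-catenin on transcription factors of the TCF/LEF family, to which Tcf7l2 belongs.

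Libraries totalled 40.8 to 51.7 M counts (mega counts) in the deprived group and 34.6 to 56.7 M in the control group. Mitochondrial ribosomal RNA took 22 to 29.1% of deprived and 24.5 to 31.1% of control counts. Sex-linked genes differed from the labelled sex in 0 libraries. Cx3cr1 itself had 2, 3, 2, 6 and 2 reads in the deprived libraries of mice 7, 12, 18, 19 and 22, against 3, 3, 6, 8 and 2 reads in their control libraries, too few to test. On the first principal component, which held 23.1% of the variance of log2 levels, deprived 7 and deprived 18 lay farthest to one side, at -44.6 and -25.2. Values below are given in the order of mice 7, 12, 18, 19 and 22 where not stated otherwise. Levels are CPM, counts scaled to library size by edgeR's TMM method. Changes are log2 fold changes of deprived over control ± standard error from a fit with the mouse as a block.

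Whisker loss was accompanied by few changes that passed the test, and all of them were decreases. Of 18421 genes tested, 3 passed an adjusted p of 0.05 (0.0163%), and these were Id4, Tcf7l2 and Rbms3, all lower in deprived cortex. No gene passed as higher (0 of 18421, edgeR). At an unadjusted p under 0.05 there were 870 lower genes (4.72%) and 422 higher genes (2.29%), and the DESeq2 Wald test called 59 lower and 3 higher. Without the mouse block, edgeR called 7 genes, which included the same 3.

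Tcf7l2, the TCF/LEF factor named above and a marker of thalamic neurons in the developing brain, lies on chromosome 19, 55741820 to 55933654 (GRCm38, plus strand). It had 10.5, 12.4, 11.5, 13.5 and 11 CPM in deprived cortex, against 89.8, 149, 94.3, 83.2 and 18.7 CPM in control cortex. The deprived libraries were nearly alike, whereas the control libraries were spread widely, with control 22 close to the deprived level, and the groups did not overlap, as in 0.516% of all genes tested with the deprived group lower. The fitted change was -2.69 ± 0.29 (adjusted p = 0.0099, lower in 5 of 5 mice). Without mouse 22 it was -3.09 (adjusted p = 4.87e-06), and without mouse 7, 12 or 19 the adjusted p was 0.163, 0.0548 or 0.0728.

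Id4, an inhibitor of basic helix-loop-helix transcription factors that is active in neural progenitors and astrocytes, lies on chromosome 13, 48261228 to 48266026 (plus strand). It had 52.1, 51.0, 67.4, 60.1 and 60.9 CPM in deprived cortex, against 91.8, 93.8, 121, 85.3 and 86.3 CPM in control cortex. The lowest control library lay above the highest deprived library. The change was -0.71 ± 0.07 (adjusted p = 0.0032), and without mouse 7 the adjusted p was 0.0733. Exons of Id4 overlap those of A330033J07Rik and Gm49291, and the strand used in counting is not given in the sources used here, so reads of these genes cannot be told apart.

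Rbms3, which encodes an RNA-binding protein, lies on chromosome 9 and was lower in deprived cortex as well. Its level was 57.7, 61.7, 67.2, 66.5 and 67.2 CPM in deprived cortex, against 85.8, 96.6, 103, 91.0 and 78.3 CPM in control cortex. The groups did not overlap, and the gap was narrowest in mouse 22. The change was -0.50 ± 0.06 (adjusted p = 0.024), and it did not pass without mouse 7, 12 or 19 (adjusted p = 0.203, 0.262 and 0.0728).

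**Figure D1:**
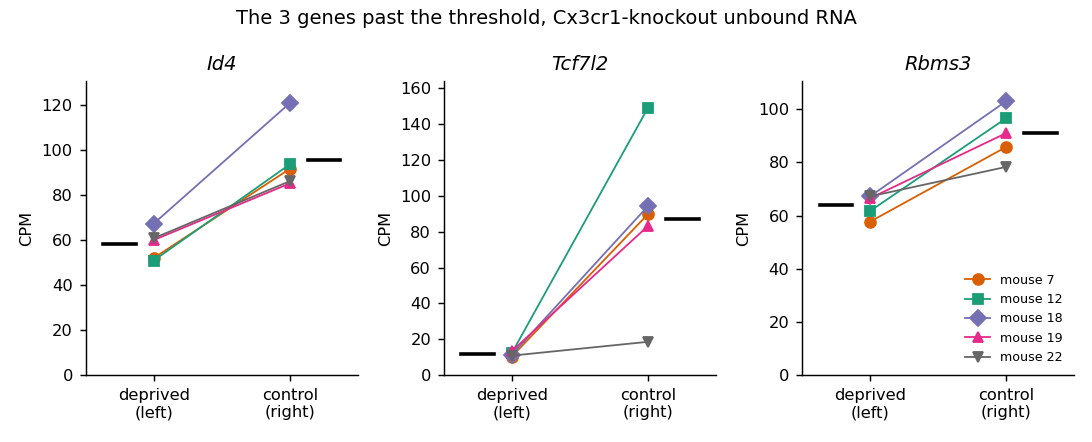
Level of Id4, Tcf7l2 and Rbms3 in CPM in the deprived (left) and control (right) cortex of each knockout mouse, unbound RNA, with a line joining the pieces of 1 mouse and a black bar at each group mean. All 15 lines rise toward the control piece, and for Tcf7l2 mouse 22 has a control level of 18.7 CPM, far under the other controls.

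The 250 bases before the start of each of these genes are shown because the genes were lower together and Tcf7l2 encodes a factor that binds the core CTTTGA (or TCAAAG on the other strand). Sequences are from RefSeq (GRCm38.p6), 5′ to 3′ on the gene's strand, in lower case with the core in capitals. Of 32851 promoter windows of this length in the table, 13.8% hold the core on either strand. The window of Rbms3 (chr9:117629914-117630163, minus strand) holds 1 copy, and those of Tcf7l2 (chr19:55741560-55741809, plus strand) and Id4 (chr13:48260866-48261115, plus strand) hold 0 copies. Tcf7l2 and Rbms3 have 2 starts each in the table, and the one nearest the annotated start of the gene on its strand was taken. A match describes the letters only.
Tcf7l2: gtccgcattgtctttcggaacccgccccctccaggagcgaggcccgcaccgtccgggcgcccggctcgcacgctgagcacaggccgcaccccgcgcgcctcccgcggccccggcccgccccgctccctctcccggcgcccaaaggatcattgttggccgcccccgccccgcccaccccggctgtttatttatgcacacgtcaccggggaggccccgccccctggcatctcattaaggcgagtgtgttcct
Id4: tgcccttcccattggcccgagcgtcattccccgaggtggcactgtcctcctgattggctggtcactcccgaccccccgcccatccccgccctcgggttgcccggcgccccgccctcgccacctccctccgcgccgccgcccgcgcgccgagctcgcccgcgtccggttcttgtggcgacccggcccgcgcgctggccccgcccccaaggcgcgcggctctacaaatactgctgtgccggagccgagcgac
Rbms3: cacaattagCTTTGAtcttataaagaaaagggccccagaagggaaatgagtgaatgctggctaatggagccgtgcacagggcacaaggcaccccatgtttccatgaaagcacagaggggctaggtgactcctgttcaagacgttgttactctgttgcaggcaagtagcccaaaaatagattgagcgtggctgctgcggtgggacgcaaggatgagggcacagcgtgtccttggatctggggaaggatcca

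Among genes with a mean log2 CPM of at least 3, those nearest to passing were again lower in deprived cortex. Zfhx3, a homeobox and zinc finger transcription factor, had 13.8, 17.0, 34.6, 34.1 and 32.0 CPM in deprived cortex, against 54.3, 64.0, 93.8, 57.2 and 46.3 CPM in control cortex. These groups did not overlap, with deprived 7 and 12 lowest (-1.31 ± 0.18, adjusted p = 0.052). The next were Dgkk, a diacylglycerol kinase (-0.90 ± 0.14, adjusted p = 0.062), Zfhx4, a relative of Zfhx3 (-0.84 ± 0.13, adjusted p = 0.062), and Prkch, a protein kinase C (-0.70 ± 0.11, adjusted p = 0.090). Pbx3, a homeobox factor, had a change of -0.46 ± 0.08, Nrsn2, a neuronal membrane protein gene, -0.45 ± 0.07, and Cdkn1a, the cell cycle inhibitor p21, -0.37 ± 0.06 (adjusted p = 0.090 each). All of these were lower in 5 of 5 mice. Without the block Dgkk, Prkch, the actin-binding gene Synpo2 and the microtubule-severing gene Fign passed beside the 3 genes above (adjusted p = 0.0302, 0.0302, 0.0302 and 0.0475). In the fit with the block Six3, described below, Synpo2 and Fign each had an adjusted p of 0.058, below those of Dgkk and Zfhx4, at lower mean levels. Fign was named after its values were seen.

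Among genes with a positive change none came near the threshold. Ccdc149 had 22.3, 18.7, 18.1, 19.2 and 19.5 CPM in deprived cortex, against 17.2, 16.2, 15.0, 16.6 and 15.8 CPM in control cortex. The groups did not overlap, but the change was small (0.27 ± 0.06, adjusted p = 0.197). Etv6, an Ets-family repressor (0.33 ± 0.08, adjusted p = 0.293), Lhx2, a LIM homeobox factor of cortical neurons (0.20 ± 0.05, adjusted p = 0.301), and Met, the receptor of hepatocyte growth factor (0.34 ± 0.08, adjusted p = 0.323), followed. Usp43, Gmip, Bhlhe22, Ryr2, Ssbp2 and Ypel1 had changes of 0.20 to 0.31 with adjusted p of 0.318 to 0.392.

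Markers of thalamic neurons as a group lay below 0. Of 16 listed markers 14 were tested. Of these 1 passed (Tcf7l2, lower), 12 had negative changes, and 6 were lower in 5 of 5 mice, beside 4.38% of all genes tested. The list's median change was -0.85, beside 0.00444 over all genes. The summed level of the 14 genes was 106, 144, 90.9, 179 and 158 CPM in deprived cortex, against 282, 452, 353, 317 and 177 CPM in control cortex. It was lower in the deprived piece of 5 of 5 mice, by least in mouse 22 (mean log2 ratio -1.20 ± 0.72, SD, n = 5 mice, exact sign-flip permutation p = 0.0625, two-sided, the smallest that 5 mice allow). In tissue libraries, fewer cells of a type and less RNA per cell cannot be told apart. The labels do not say whether the pieces were cut alike on both sides, and since all deprived pieces are left, a difference in cutting and deprivation cannot be told apart.

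Single thalamic markers other than Tcf7l2 did not pass, and their values differed by mouse. Synpo2 came nearest (-0.77 ± 0.11, adjusted p = 0.058), with 5.83, 4.99, 5.70, 5.79 and 5.53 CPM in deprived cortex, against 11, 11.6, 9.68, 7.95 and 7.75 CPM in control cortex. Slc17a6, the vesicular glutamate transporter of thalamic neurons, had 37.4, 43.2, 20.9, 31.0 and 29.6 CPM in deprived cortex, against 53.5, 66.8, 39.2, 48.4 and 28.1 CPM in control cortex. It was lower in mice 7, 12, 18 and 19 and slightly higher in mouse 22 (-0.53 ± 0.10, adjusted p = 0.173). Ntng1, which encodes a membrane protein of thalamic axons, had 10.4, 12.7, 7.46, 14.3 and 13.8 CPM in deprived cortex, against 28.9, 29.9, 26.4, 21.3 and 12.4 CPM in control cortex. Again mouse 22 was the exception, with a deprived level just above its control.

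The transcription factor genes Zic1, Zic4 and Lhx9, described after their values were seen, separated the mice in another way. Zic1 had 5.77, 11.3, 6.31, 40.9 and 29.8 CPM in deprived cortex, against 28.5, 69.5, 73.1, 58.0 and 37.2 CPM in control cortex. The deprived pieces of mice 7, 12 and 18 were low, and those of mice 19 and 22 were within the control range (-1.78 ± 0.39, adjusted p = 0.213). Within every mouse, 19 and 22 included, the deprived piece was below its own control. Lhx9 had 0.737, 8.77, 0.328, 10.1 and 7.90 CPM in deprived cortex, against 12.9, 26.3, 18.3, 19.2 and 9.47 CPM in control cortex, so deprived 7 and 18 were almost without it. Lhx9 too was lower in the deprived piece of every mouse. Shox2 and Gbx2, both thalamic homeobox genes, stood under the filter on low counts. Shox2 had 0, 5, 1, 0 and 0 reads in deprived libraries, against 73, 118, 39, 41 and 4 reads in control libraries, and Gbx2 had 1 to 4 reads against 2 to 74.

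Leaving out mouse 22, whose control piece was low in these markers, 27 of 18717 genes passed, 25 lower and 2 higher, and these included the 3 genes above. Of the 16 listed thalamic markers 7 passed in that fit, among them Slc17a6 (-0.67 ± 0.07, adjusted p = 0.0039), Ntng1 (-1.27 ± 0.16, adjusted p = 0.017) and Synpo2. Shox2 and Gbx2 are also among the 7. They met the filter on low counts only through control libraries, so a lower deprived level was built in. Mouse 22 stood out by these same markers, so this count is a description only. Dgkk (-1.10 ± 0.09), Zfhx4 (-1.01 ± 0.09) and Zfhx3 (-1.51 ± 0.17) also passed. Leaving out mice 7 and 18 in place of mouse 22, 5 genes passed (3 lower and 2 higher, with Id4 and Tcf7l2 among them and Rbms3 not), and the thalamic median was -0.54. Without mice 7 and 12, 0 genes passed in edgeR, with 639 at an unadjusted p under 0.05. Without mouse 7, 12, 18 or 19 alone 0, 1, 3 and 2 passed, with 817 at an unadjusted p under 0.05 without mouse 7.

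**Figure D2:**
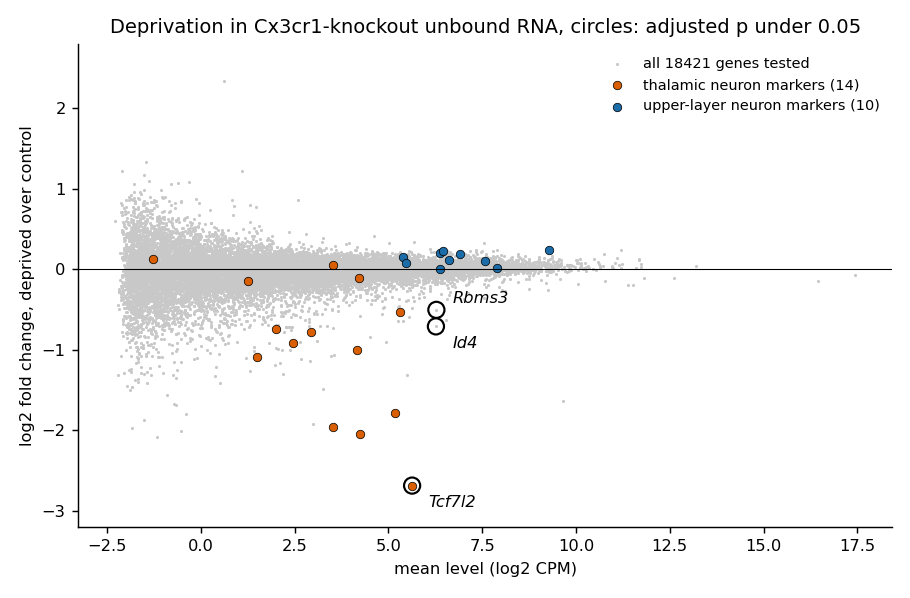
Log2 fold change of deprived over control against mean level in log2 CPM for all 18421 genes tested in knockout unbound RNA (grey), with the 14 thalamic neuron markers in orange, the 10 upper-layer neuron markers in blue and the 3 genes past the threshold circled. Most thalamic markers lie below 0, with Tcf7l2 at -2.69, and the upper-layer markers lie close above 0.

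Markers of other structures that border the cortex also differed, some of them most in a few libraries. Choroid plexus and ependyma line the ventricle, and their 12 markers were all below 0 (median -0.94), with 0 passing. Of the 12, 8 were lower at an unadjusted p under 0.05, beside 4.72% of all genes tested. Lower in 5 of 5 mice were 6, beside 4.38% of all genes tested. By mouse the median difference of the list was -2.5, -1.62, -0.298, -0.139 and -0.199. Ttr, the thyroid hormone carrier made by choroid plexus, had 0.532, 137, 1040, 906 and 804 CPM in deprived cortex, against 1020, 1240, 935, 866 and 1120 CPM in control cortex. Deprived 7 was almost without it and deprived 12 was low, whereas the other deprived pieces overlapped the controls (adjusted p = 0.806). The summed level of the list was 24.7, 176, 1120, 987 and 882 CPM in deprived cortex, against 1100, 1350, 1030, 959 and 1210 CPM in control cortex (mean log2 ratio -1.74 ± 2.43, SD, n = 5 mice, exact sign-flip permutation p = 0.25). The sum is mostly Ttr. The mean of the members' log2 differences was -1.07 (exact sign-flip permutation p = 0.0625, the smallest that 5 mice allow). Without mice 7 and 12 the median of the list was -0.23.

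Among hippocampal markers, Zbtb20, Nrp2 and Prox1 were low in 2 deprived pieces. Zbtb20, a zinc finger factor of hippocampal neurons and glia, had 580, 1280, 585, 1540 and 1180 CPM in deprived cortex, against 762, 1030, 1360, 1140 and 1250 CPM in control cortex. Nrp2, a semaphorin receptor, had 11.8, 60.0, 6.31, 73.1 and 68.3 CPM in deprived cortex, against 34.1, 63.3, 55.5, 53.5 and 45.2 CPM in control cortex. Prox1, a homeobox factor of dentate granule cells, had 36.8 and 37.0 CPM in deprived 7 and 18 and 87.0 to 116 CPM in the other deprived pieces, against 93.4 to 133 CPM in control cortex. For all of these genes deprived 7 and 18 lay below every control, and the other deprived pieces overlapped the control range. The 9 tested markers were all below 0, with a median of -0.24, which was 0.0136 without mice 7 and 18, and 0 of them passed. Dsp, another marker of the list, was lower in 5 of 5 mice (-0.28 ± 0.11, adjusted p = 0.654). Its groups did not overlap, as in 0.516% of all genes tested with the deprived group lower. Zbtb20, Nrp2 and Prox1 were chosen after their values were seen.

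Striatal markers did not pass (0 of 18). Of these 17 were below 0 and 6 were lower in 5 of 5 mice, beside 4.38% of all genes tested, with a median of -0.30. At an unadjusted p under 0.05, 12 of the 18 were lower, beside 4.72% of all genes tested. Six3, a homeobox gene of striatal neurons whose exons overlap the antisense gene Six3os1, had 3.11, 3.01, 7.11, 4.85 and 5.17 CPM in deprived cortex, against 12.5, 6.81, 15.6, 6.59 and 10.2 CPM in control cortex. The lowest control library lay under the highest deprived one, although each mouse was lower in its deprived piece (-1.14 ± 0.17, adjusted p = 0.058). Drd2, the dopamine D2 receptor, had a change of -0.52 ± 0.11 (adjusted p = 0.207) and Meis2, a homeobox factor, -0.22 ± 0.06 (adjusted p = 0.379). The summed striatal level was 988 to 1320 CPM in deprived and 948 to 1400 CPM in control cortex (mean log2 ratio -0.15, exact sign-flip permutation p = 0.1875, n = 5 mice). The mean of the members' log2 differences was -0.324 (exact sign-flip permutation p = 0.0625, the smallest that 5 mice allow). In mouse 12 the sum was higher in the deprived piece (988 CPM, against 948 CPM in its control piece), and the median difference of the list was 0.0168.

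Upper-layer cortical neuron markers leaned the other way. All 10 had positive changes with a median of 0.14, and 3 were higher in 5 of 5 mice, beside 3.61% of all genes, but 0 passed. The summed level of the list was 1980, 1550, 1980, 1540 and 1480 CPM in deprived cortex, against 1570, 1440, 1460, 1560 and 1550 CPM in control cortex. The high libraries were deprived 7 and 18, the ones low in hippocampal markers, and the other deprived pieces overlapped the controls (mean log2 ratio 0.16, exact sign-flip permutation p = 0.25, n = 5 mice). Without mice 7 and 18 the median of the list was 0.023. Deep-layer markers had a median of -0.0351, with Foxp2 at -0.23 ± 0.05 (adjusted p = 0.249) and Fezf2 at 0.11 ± 0.05 (adjusted p = 0.683), and 0 of 11 passed. The defining markers of cortical excitatory neurons were present in every library, with a summed level of 1860 to 2090 CPM in deprived and 1670 to 1870 CPM in control cortex.

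**Figure D3:**
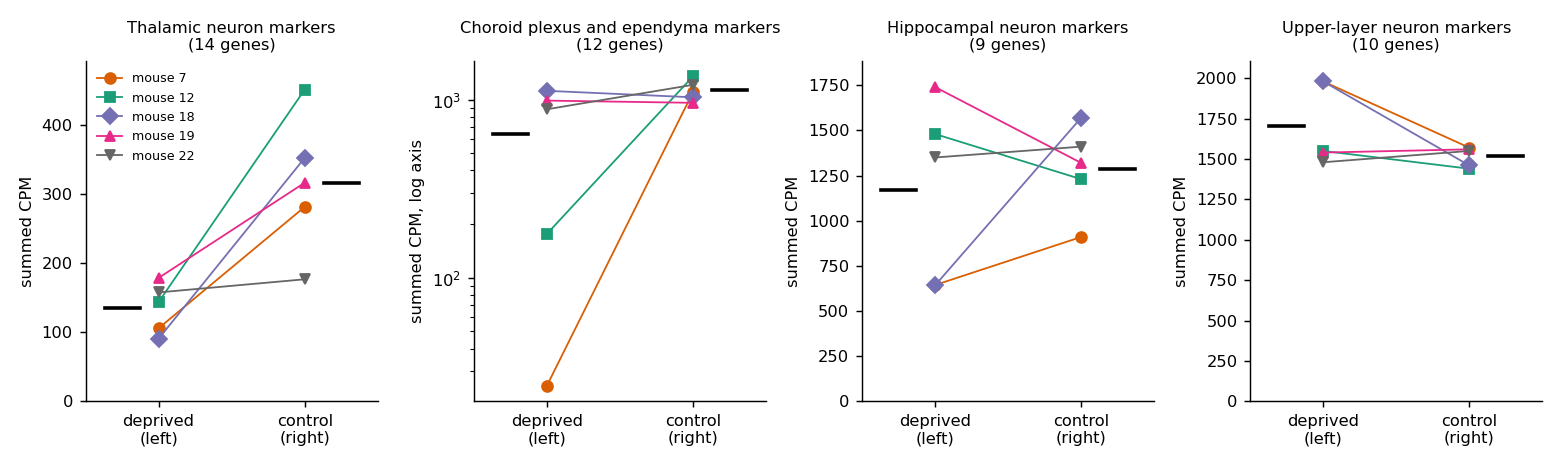
Summed CPM of the tested markers of thalamic neurons, choroid plexus and ependyma (log axis), hippocampal neurons and upper-layer neurons in the deprived (left) and control (right) piece of each mouse, with black bars at the group means. The thalamic sum is lower in the deprived piece of 5 of 5 mice, the choroid sum falls far below the rest in deprived 7 (24.7 CPM) and 12 (176 CPM), and the hippocampal sum is lowest in deprived 7 and 18 (644 and 642 CPM).

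How far the differing content of these neighbouring structures carries into the values of Id4, Tcf7l2 and Rbms3 was not tested. Each of the 3 genes was lower in the deprived piece of every mouse. The choroid sums of mice 19 and 22 were 987 and 882 CPM in deprived pieces, against 959 and 1210 CPM in control pieces. The choroid list medians of these mice were -0.139 and -0.199. Their striatal sums were 991 and 1080 CPM in deprived pieces, against 1070 and 1400 CPM in control pieces. Their hippocampal sums were 1740 and 1350 CPM in deprived pieces, against 1320 and 1410 CPM in control pieces. Their thalamic sums, which include Tcf7l2 itself, were 179 and 158 CPM in deprived pieces, against 317 and 177 CPM in control pieces. In mouse 19 the deprived and control levels were 13.5 and 83.2 CPM for Tcf7l2, 60.1 and 85.3 CPM for Id4, and 66.5 and 91.0 CPM for Rbms3. In mouse 22 they were 11 and 18.7 CPM, 60.9 and 86.3 CPM, and 67.2 and 78.3 CPM.

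None of the genes that respond to neuronal activity passed. All 24 listed immediate early genes were tested. Of these 16 were below 0 and 8 above, the median was -0.0718, and 6 were lower at an unadjusted p under 0.05, beside 4.72% of all genes tested. Egr1, a zinc finger factor, had 47.7, 44.6, 35.6, 41.6 and 38.1 CPM in deprived cortex, against 54.6, 46.4, 43.6, 41.2 and 51.5 CPM in control cortex. It was lower in 4 of 5 mice, with overlapping groups (-0.19 ± 0.07, adjusted p = 0.560).

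Fos, a subunit of the AP-1 factor, had 1.49, 2.27, 1.22, 1.41 and 1.46 CPM in deprived cortex, against 1.92, 2.62, 1.48, 2.16 and 1.72 CPM in control cortex, lower in 5 of 5 mice (-0.34 ± 0.14, adjusted p = 0.663). Arc, a regulator of synaptic receptors, had a change of -0.35 ± 0.15 (adjusted p = 0.692), Egr2 -0.35 ± 0.13 (adjusted p = 0.625), Sik1 -0.19 ± 0.08 and Nptx2 -0.62 ± 0.28. Bdnf, a neurotrophin, had 3.97, 7.24, 1.55, 6.19 and 6.05 CPM in deprived cortex, against 6.83, 8.00, 4.86, 6.02 and 5.63 CPM in control cortex. It was low in deprived 7 and 18 and within the control range in the other deprived pieces (adjusted p = 0.726). Npas4, a factor induced by calcium entry, had a change of -0.15 ± 0.14.

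Layer 4 and barrel genes did not pass either (0 of 12). Rorb, the nuclear receptor that marks layer 4 neurons, had 527, 398, 539, 404 and 362 CPM in deprived cortex, against 454, 376, 401, 438 and 436 CPM in control cortex, which overlapped (0.07 ± 0.08, adjusted p = 0.907). The summed level of the list was higher in deprived cortex by a mean log2 ratio of 0.16, while the mean of the members' log2 differences was -0.0837. The exact sign-flip permutation p was 0.3125 and 0.4375 (n = 5 mice), a test that cannot give a p under 0.0625 with 5 mice.

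The fractalkine ligand and its proteases did not pass. Cx3cl1 had 19.6, 21.1, 11.5, 16.4 and 16.3 CPM in deprived cortex, against 19.7, 19.5, 17.5, 16.7 and 16.5 CPM in control cortex. The largest gap was in mouse 18, and the groups overlapped (-0.10 ± 0.09, adjusted p = 0.862). Adam10 had a change of 0.03 ± 0.07 and Adam17 of -0.06 ± 0.08. Microglial markers were measured at low levels, as in whole tissue, with a summed level of 54.2 to 69.5 CPM over 23 genes in deprived and 59.9 to 70.3 CPM in control cortex. Of the 23 genes, 19 were below 0 with a median of -0.0759, and 0 passed. Csf1r, the receptor microglia need to survive, had a change of -0.02 ± 0.16 and P2ry12, a purinergic receptor, of -0.05 ± 0.15.

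Of the Wnt ligands and the genes for their secretion, 13 of 18 passed the filter on low counts and 0 passed the test. The median was -0.12 and 11 were below 0. Wnt5a had a change of -0.17 ± 0.12, Wnt7a of -0.12 ± 0.12, Wnt7b of 0.02 ± 0.11 and Wls, the carrier that brings Wnt proteins to the cell surface, of -0.18 ± 0.13. A list of 17 genes held members of the Wnt pathway, Tcf7l2 and Lef1 among them, beside targets such as Axin2. Of these Tcf7l2 alone passed, and the median was 0.0253. Axin2, the most direct readout of beta-catenin signalling, overlapped between the groups, with 11.5, 11.4, 11.4, 12.2 and 12.4 CPM in deprived cortex, against 10.7, 10.6, 12.5, 12.4 and 13 CPM in control cortex (-0.0016 ± 0.07, adjusted p = 0.999). Lef1, a relative of Tcf7l2 that is also in the thalamic list, was lower in 5 of 5 mice without passing (-0.74 ± 0.18, adjusted p = 0.308).

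Glial and metabolic lists had small medians and no member that passed. Astrocyte markers had a median of -0.0954 (18 of 20 below 0), reactive astrocyte genes of -0.15 (9 of 9 below 0), complement and engulfment genes of -0.115 (15 of 16 below 0) and oligodendrocyte lineage genes of -0.0766. Mouse 18 alone had a median of -0.532 over the astrocyte list, while those of the other mice lay between -0.0617 and 0.0855. Genes of sterol synthesis were all above 0 (14 of 14) with a median of 0.059. Protein-coding genes of the mitochondrial genome had a median of -0.192, again with the lowest value in mouse 18 (-0.478). Over all genes tested 48.2% were below 0. Members of a list can move together within a library, so the number on one side is not a count of independent results. In mice 18 and 22 the medians were -0.63 and 0.121 for reactive astrocyte genes and -0.361 and 0.095 for complement and engulfment genes. The sterol median was -0.0486 in mouse 19 and above 0 in the other mice.

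**Figure D4:**
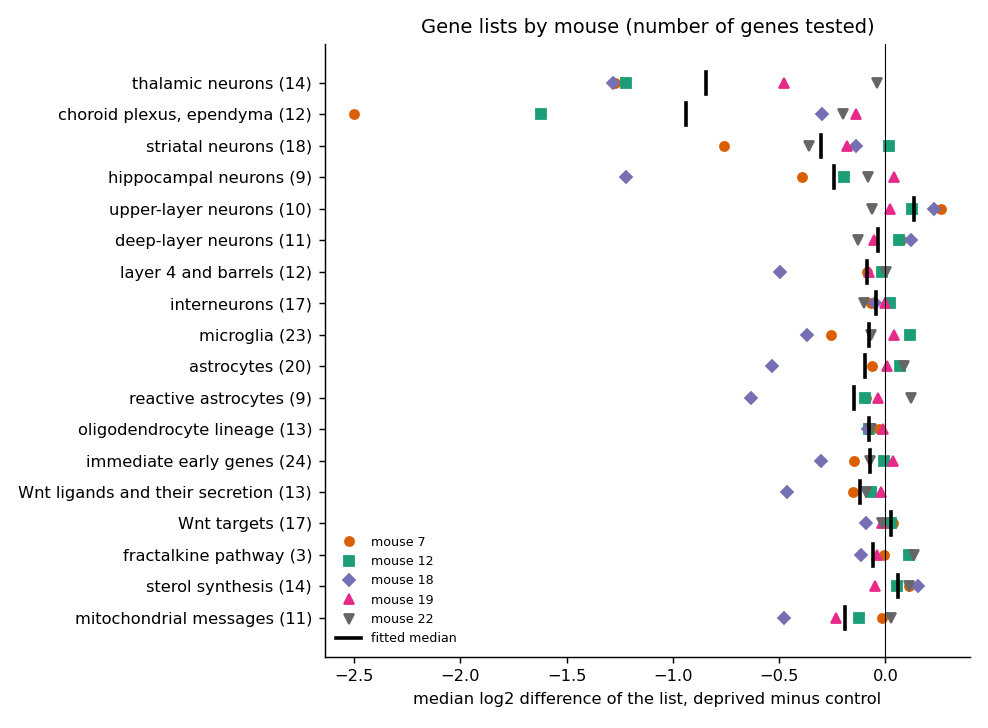
Median log2 difference, deprived minus control, of 18 gene lists, with coloured symbols for the 5 mice, a black bar for the median of the fitted changes and the number of genes tested in brackets. Thalamic markers range from -1.28 in mouse 18 to -0.0386 in mouse 22, choroid and ependyma markers reach -2.5 in mouse 7, and mouse 18 has the lowest value of the astrocyte list (-0.532). The row labelled Wnt targets also holds members of the Wnt pathway.

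RNA bound to the tagged ribosomes of the same 10 pieces gave changes of similar size for the 3 genes. Bound Tcf7l2 had 12.6, 13.1, 16.4, 14.5 and 15.4 CPM in deprived cortex, against 99.9, 174, 121, 92.1 and 25.3 CPM in control cortex, with control 22 low here too. Its change was -2.63 ± 0.32 in bound RNA (adjusted p = 0.040). The difference between the unbound and the bound change was -0.03 ± 0.09 for Tcf7l2, -0.06 ± 0.08 for Id4 and -0.05 ± 0.09 for Rbms3. In bound RNA 2 of 18324 genes passed (0.0109%), Tcf7l2 and Dgkk, both lower. The difference between the fractions passed for 0 of 19681 genes (0%, edgeR), with 721 at an unadjusted p under 0.05, and for 0 in DESeq2 and limma-voom. Bound and unbound RNA came from the same pieces, so the fractions are not independent samples.

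The deprivation changes of the knockout line were also set against those of the heterozygous line. The heterozygous mice, Cx3cr1CreErt2/+(Litt) Eef1a1LSL.eGFPL10a/+, had the same tamoxifen and lesion and gave 4 deprived and 4 control unbound libraries. Their RNA is labelled total RNA and that of the knockout line polyA RNA, and their counts are in another table, so only changes within a line were compared. Genotype, RNA type and count table cannot be told apart in this comparison. Titles and side letters disagree for part of this line: the pieces titled deprived are 14L, 15L, 17L and 17R, and those titled control are 14R, 15R, 21L and 21R. By title, the change differed between lines for 345 of 19278 genes (1.79%), 98 with a higher and 247 with a lower change in the knockout line. Leaving out 1 library moved this count between 69 (without 15L) and 732 (without 14R). By side letter it differed for 2 genes, Tcf7l2 and Dgkk. Pieces 17L and 17R come from 1 animal, as do 21L and 21R, and mice 14 and 15 are in both groups, so the pieces are not independent animals and p-values by title may be too small. Within the heterozygous line by title, 678 of 18073 genes passed (3.75%), and Id4, Tcf7l2 and Rbms3 did not (adjusted p = 0.147, 0.337 and 0.088).

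Tcf7l2 differed under each of these groupings. Its knockout change minus its heterozygous change was -3.08 ± 0.45 by title (adjusted p = 0.0052), -3.03 by side letter (adjusted p = 0.0303) and -2.86 with mice 14 and 15 alone for the heterozygous line and the mouse as a block (adjusted p = 0.0309). Heterozygous unbound libraries had 12.0 to 15.3 CPM of Tcf7l2 in deprived and 11 to 14.2 CPM in control cortex. All 8 lay under the lowest knockout control library, a description only, since the lines' tables differ in RNA type. The same difference for Dgkk was -1.64 ± 0.23 by title (adjusted p = 0.0052) and -1.57 by side letter (adjusted p = 0.0303).

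For Id4 and Rbms3 the difference between lines passed under 2 of these 3 groupings. It was -0.999 ± 0.16 for Id4 (adjusted p = 0.0071) and -0.75 ± 0.11 for Rbms3 (adjusted p = 0.0052) by title. With mice 14 and 15 alone and the mouse as a block it was -0.994 (adjusted p = 0.0093) and -0.64 (adjusted p = 0.0275). By side letter the adjusted p was 0.0663 and 0.126. Id4 had 65.2, 89.7, 87.8 and 90.5 CPM in heterozygous pieces titled deprived (17R, 14L, 15L, 17L), against 65.8, 79.1, 67.0 and 60.4 CPM in those titled control (21R, 14R, 15R, 21L). The heterozygous libraries overlapped and leaned the opposite way from the knockout ones. Zfhx4 (-1.57 ± 0.23) and Zfhx3 (-1.92 ± 0.35) passed by title as well, with adjusted p of 0.0052 and 0.010.

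The neighbouring-structure genes Lhx9 and Zic1 had changes of opposite sign in the 2 lines, grouped by title. Lhx9 had 5.86 to 12.7 CPM in heterozygous pieces titled deprived, against 0.383 to 1.51 CPM in those titled control (heterozygous change 3.50 ± 0.33), whereas its knockout change was -1.96 ± 0.51. The difference of -5.12 passed by title (adjusted p = 0.0078), as did that of -6.2 with mice 14 and 15 alone (adjusted p = 0.0309), but by side letter it did not (adjusted p = 0.552). Zic1 was 24.0 to 43.4 CPM in heterozygous pieces titled deprived, against 4.45 to 9.45 CPM in those titled control, and Nrp2 46.8 to 74.4 CPM against 7.27 to 21.3 CPM. The knockout change of Nrp2 was -0.60 ± 0.41 (adjusted p = 0.822), with deprived 7, 12 and 18 below their controls and deprived 19 and 22 above theirs. Their part in the 345 differences was not tested. Among genes with a higher change in the knockout line were Ablim1, an actin-binding protein gene (0.44 ± 0.07), Tbc1d5, a regulator of vesicle traffic (0.77 ± 0.13), and Cxxc4, an inhibitor of Wnt signalling (0.65 ± 0.12). None of these passed within the knockout line itself, where their changes were 0.15, 0.22 and 0.14.

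**Figure D5:**
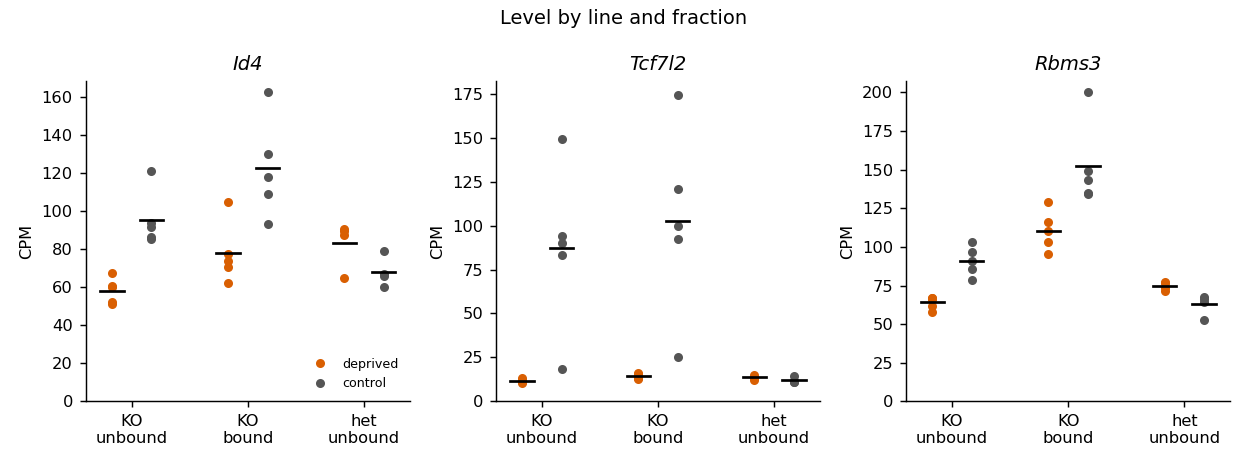
CPM of Id4, Tcf7l2 and Rbms3 in single libraries of knockout (KO) unbound, KO bound and heterozygous (het, grouped by title) unbound RNA, deprived in orange left of control in grey, with black bars at the means. Tcf7l2 is at 10.5 to 16.4 CPM in every group except the KO control libraries, where it reaches 149 CPM unbound and 174 CPM bound.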

How the data were processed

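The deposited tables hold raw counts of reads per Ensembl gene, made by the authors with Trim Galore 0.6.4, cutadapt 2.9, HISAT2 2.2.0 and featureCounts 2.0.0 on GRCm38, per the submitters' processing notes. Counting settings and strand are not given in the sources used here. Per the labels, cDNA came from a NuGEN Ovation V2 amplification. Counts carry no molecular identifiers, so copies made in amplification cannot be told from separate molecules. Precision may therefore be lower than the depth alone would give.

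Of 55385 genes, 16768 had no count in the 10 libraries and 18421 passed filterByExpr. The test was edgeR 4.0.16 (R 4.3.3): TMM, quasi-likelihood F test, mouse as a block, Benjamini-Hochberg adjustment over all genes tested, two-sided. The standard error is the change divided by the square root of F. Differences between fractions used the piece as a block (19681 genes). Differences between lines used genes present in both tables, without a block (19278 genes). Each test was checked on simulated counts. Summed marker levels were compared by sign flips over 5 mice. Lists were described by counts and medians, with no test, and positions are from GENCODE vM21.

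Both libraries of a number come from 1 animal, which is the pairing used. After group means were removed, same-mouse libraries correlated at 0.332, 0.235, 0.0574, 0.161 and 0.063 for mice 7, 12, 18, 19 and 22.

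Named genes were those that passed, up to 10 per direction by smallest p with a mean log2 CPM of at least 3, the 3 members of lowest p in each of 37 lists, whole activity, Wnt ligand, fractalkine and layer 4 lists, and a fixed set. Up to 5 per direction were added for each difference. Predicted genes were left out, and 1 list member is not reported here by name. Meis2, Ntng1, Shox2, Gbx2, Ttr and Crym were named outside this rule, after their values were seen, as were the genes for which the text says so. The groups, members and lists were chosen with earlier results of these data known. Exons of Usp43, Etv6, Nrsn2, Cdkn1a, Ssbp2, Ypel1, Lef1, Enpp2, Wnt5a, Wnt7b, Axin2, Csf1r, P2ry12, Adam17 and Bdnf overlap another gene, and their counts are uncertain to that extent. Alternatives were DESeq2 1.42.0, its size factors, limma-voom 3.58.1 with sample weights, no filter, no block, sex as a term, all 4 knockout groups in the fit, and libraries or mice left out. Leaving out mice 7 and 18, or 7 and 12, was chosen after seeing the data.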

Additional observations from a re-analysis of the deposited data

Results flagged for a closer look

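In groups of 5 libraries, 7 values stood apart from their group by Dixon's test at the 95% level, of 144 groups looked at, where chance alone flags about 1 in 20. Id4 was 121 CPM in control 18, with the other controls at 85.3 to 93.8 CPM. Fos was 2.27 CPM in deprived 12, with the others at 1.22 to 1.49 CPM. Ryr2 was 112 CPM and Fezf2 73.8 CPM in deprived 7, with the other deprived libraries at 84.5 to 90.2 CPM and 62.2 to 62.7 CPM. In control 12, Enpp2 was 59.2 CPM and Crym, a thyroid hormone binding protein gene, 74.4 CPM, with the other controls at 41.4 to 44.0 CPM and 52.2 to 57.0 CPM. The summed level of striatal markers was 1320 CPM in deprived 18, with the other deprived libraries at 988 to 1080 CPM.

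The deprivation effect differed between the knockout and the heterozygous line, grouped by title, in 345 genes by edgeR's test of that difference, and the 5 of smallest p in each direction, among genes with a mean log2 CPM of at least 3 and leaving out predicted genes, are given here. The knockout change was lower by a log2 difference of -1.64 for Dgkk, -0.752 for Rbms3, -3.08 for Tcf7l2, -1.57 for Zfhx4 and -0.999 for Id4. It was higher by 0.441 for Ablim1, 0.766 for Tbc1d5, 0.647 for Mpped1, 0.656 for Fhod3 and 0.654 for Cxxc4. With heterozygous groups by side letter, Tcf7l2 and Dgkk passed and none of the other 8 did.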

How the results depend on the processing

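The 3 passing genes became 7 without the replicate block, 4 with DESeq2 size factors, 62 with the DESeq2 Wald test, 28 with limma-voom, 12 with all 4 knockout groups in the fit and 420 without the filter on low counts. Of those 420 genes, 26 were not tested with the filter and 394 were. Leaving out 1 mouse gave 0 to 27 genes, and leaving out 1 library without the block gave 0 to 22. Leaving out mice 7 and 18 gave 5 genes, and mice 7 and 12 gave 0. Id4 passed in 16, Tcf7l2 in 14 and Rbms3 in 9 of 24 alternatives, with negative changes in all 24 (-0.773 to -0.622, -3.15 to -2.2 and -0.577 to -0.439). The count of differences between fractions was 0 except without the filter, where it was 51. The 345 differences between lines became 872 without the filter, 841 with DESeq2, 141 with mice 14 and 15 alone and a replicate block, 2 by side letter and 69 to 732 without 1 library. The median of cortical area genes (-0.0881) was -0.017 with limma-voom and 0.00271 without mice 7 and 18, -0.116 to 0.00497 without 1 mouse and -0.0198 to 0.00803 without 1 library. The interneuron median (-0.045) lay between -0.108 and 0.0029 without 1 mouse or library. It was -0.108 without control 12 and -0.103 without deprived 18, and the only value above 0 came without control 7. The oligodendrocyte median (-0.0766) lay between -0.0826 and -0.0357 without 1 mouse. The median of the list of Wnt pathway members and targets was -0.0342 without mice 7 and 12. Summed layer 4 markers (0.163) changed sign as mean log2 levels (-0.0837). The cause of these shifts was not tested. The block changed no other call than those of Dgkk, Prkch, Synpo2 and Fign.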

Other observations

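Vascular and barrier genes, not described above, had few changes. Kcnj8, a potassium channel gene of pericytes, had 2.07, 2.19, 1.71, 1.58 and 1.68 CPM in deprived cortex, against 1.18, 1.68, 1.02, 1.39 and 1.32 CPM in control cortex, higher in 5 of 5 mice without passing (0.49 ± 0.16, adjusted p = 0.493). Steap4, a metal reductase gene in the reactive astrocyte list, had 0.0205 to 0.164 CPM in deprived cortex, against 0.300 to 0.462 CPM in control cortex. These groups did not overlap, beside 0.516% of all genes that did not overlap and were lower in deprived cortex. With 107 reads over the 10 libraries, Steap4 met the filter on low counts through the control libraries alone. The lack of overlap therefore follows in part from the filter, and the change did not pass (-1.97 ± 0.39, adjusted p = 0.173). Meningeal markers had a median of 0.20 with 10 of 11 above 0. The median ran from -0.213 (without deprived 12) to 0.689 (without mouse 18) when 1 mouse or library was left out. Their summed level was 33.2, 78.5, 37.3, 54.0 and 35.4 CPM in deprived cortex, against 14.3, 42.0, 97.7, 61.2 and 20.4 CPM in control cortex. These sums overlapped widely (exact sign-flip permutation p = 0.625, n = 5 mice).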
